A study of Mus musculus with 2 samples.

Results

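The genes described here are 45 components and close partners of the major spliceosome. They were taken by name from a fixed list of genes and not by a rule on measured values. Earlier results of these data were known when the list was made. All 45 could be followed in the RNA-seq data, of 10638 genes whose splice junction reads gave a ratio and 10155 genes whose RefSeq transcripts gave one. They contributed 658 of the 121475 splicing events measured in the whole experiment. The cells were N2A, a mouse neuroblastoma line. One library came from cells transfected with shControl, a control shRNA, and the other from cells transfected with shptbp1, an shRNA against Ptbp1, the polypyrimidine tract binding protein that represses many exons outside neurons. Both cultures were collected 3 days after transfection, were otherwise treated alike, and were sequenced as strand-specific paired reads of 100 bases. There was 1 library for each condition, so no difference has a replicate check, and a transiently transfected culture may also hold cells that took up no shRNA.

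Over 406367 distinct splice junctions there were 74382387 junction reads in the control library and, in that from the knockdown, 58295142. Ptbp1 had 40588 junction reads with the control shRNA and 10676 with the other, a log2 ratio of -1.58 after scaling to each library's total, which goes with the labels. Its homolog Ptbp2 had a log2 ratio of 1.27. The neural markers Tubb3, Stmn3 and Ncam1 had between 12085 and 21657 junction reads in each library. Of 14 markers of fibroblasts, blood, endothelium, astrocytes, muscle and liver, Ptprc, Aqp4, Myod1 and Alb had 0 reads in both libraries. The fibroblast markers Pdgfra (208 reads with the control shRNA and 371 after knockdown) and Col1a1 (28 and 74), the muscle marker Des (49 and 86) and the endothelial marker Pecam1 (246 and 250) had some, and the other 6 had between 0 and 23. Their part in the results was not tested.

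The spliceosome is assembled anew on each intron from small nuclear ribonucleoprotein particles, the snRNPs, each built from a small nuclear RNA and proteins. The U1 snRNP pairs with the 5′ splice site. SF1 and the U2AF heterodimer then recognise the branch point, the polypyrimidine tract and the terminal AG of the 3′ splice site, where PTBP1 can compete for the same pyrimidines, and the U2 snRNP takes the branch point. The U4/U6.U5 tri-snRNP and the Prp19 complex join to form the active enzyme. Several genes of this machinery carry exons whose inclusion brings in an early stop codon, a known route by which splicing factors limit their own RNA.

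Of the 658 events, 7 changed by 5 points or more of percent spliced in (PSI, the share of transcripts that include a segment) with a 95% interval on the junction reads that did not contain 0. Of these 7, 6 are shown here with 1 more that fell just short, because these segments carry the splicing differences described further on. The last of the 7 is an alternative donor, which is given by its position alone. Each sequence is read 5′ to 3′ on the transcript strand of the mm9 genome. Capitals mark the alternative segment, and the lower case letters before it are the 100 bases upstream. The 20 lower case letters after a cassette exon are intron, and those after the Tial1 acceptor segment belong to the exon that both forms share. The Snrnp70 sequence stops at the end of the annotated exon.
Tial1 alternative acceptor, chr7:135592214-135592384, minus strand: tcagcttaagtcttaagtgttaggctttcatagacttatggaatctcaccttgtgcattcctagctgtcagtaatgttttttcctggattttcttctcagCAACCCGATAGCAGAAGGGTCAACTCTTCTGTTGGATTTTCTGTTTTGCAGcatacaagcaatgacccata
Tial1 cassette exon, chr7:135602091-135602270, minus strand: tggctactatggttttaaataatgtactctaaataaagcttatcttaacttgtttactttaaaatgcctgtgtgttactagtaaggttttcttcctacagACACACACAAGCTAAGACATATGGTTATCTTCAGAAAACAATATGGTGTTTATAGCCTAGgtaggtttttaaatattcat
Tia1 cassette exon, chr6:86368995-86369147, plus strand: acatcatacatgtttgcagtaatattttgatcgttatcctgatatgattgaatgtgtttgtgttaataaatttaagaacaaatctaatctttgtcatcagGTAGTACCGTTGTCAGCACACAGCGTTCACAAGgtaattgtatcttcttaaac
Rbm39 cassette exon, chr2:156004596-156004788, minus strand: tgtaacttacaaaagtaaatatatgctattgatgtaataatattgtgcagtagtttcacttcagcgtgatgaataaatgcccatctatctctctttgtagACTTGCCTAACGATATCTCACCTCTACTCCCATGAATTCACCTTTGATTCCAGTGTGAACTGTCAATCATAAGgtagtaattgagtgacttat
Prpf39 cassette exon, chr12:66156321-66156540, plus strand: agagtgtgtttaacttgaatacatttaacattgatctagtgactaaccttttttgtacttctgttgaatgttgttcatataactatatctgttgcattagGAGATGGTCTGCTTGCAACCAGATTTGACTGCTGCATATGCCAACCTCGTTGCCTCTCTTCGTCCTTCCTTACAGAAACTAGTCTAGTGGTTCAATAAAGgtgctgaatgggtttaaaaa
Snrpa1 cassette exon, chr7:73214905-73215104, plus strand: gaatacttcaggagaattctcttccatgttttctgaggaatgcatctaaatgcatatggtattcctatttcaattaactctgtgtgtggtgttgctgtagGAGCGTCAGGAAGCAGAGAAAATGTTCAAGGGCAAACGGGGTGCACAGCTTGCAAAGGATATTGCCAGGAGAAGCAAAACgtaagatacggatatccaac
Snrnp70 exon, chr7:52638529-52638654, minus strand: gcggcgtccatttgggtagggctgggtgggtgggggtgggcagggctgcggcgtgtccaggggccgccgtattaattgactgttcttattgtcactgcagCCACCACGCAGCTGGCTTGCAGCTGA
All 7 segments follow an AG, and the 5 cassette exons with intron shown after them are followed by GT.

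RNA levels of the spliceosome genes were close between the libraries. By junction reads, 1 of 45 genes was past 1.5-fold, Prpf40b, which was higher in the knockdown library, and 0 were past 1.5-fold lower. Over all genes, 17.7% were past 1.5-fold higher and 1.34% past 1.5-fold lower by the same measure. The median log2 ratio of the 45 genes was -0.02, with quartiles of -0.11 and 0.08, and that of all 10638 genes was 0.17, with quartiles of -0.05 and 0.45. In all, 20 of the 45 ratios lay above 0 and 25 below it, against 7362 above and 3276 below among all genes, and 7 of the 45 lay above the median of all genes. A ratio of 0 by junction reads is therefore below that of most genes, and the signs given further on are to be read against 0.17.

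Several measures of the same genes had to be set side by side, because they differed for single genes. The first sums read depth times length over the RefSeq transcripts of a gene and divides it by the library total, times 1000000, written ppm. It could be computed for 43 of the 45 genes above a floor of 1 ppm. By it, 5 genes were past 1.5-fold higher (19.1% of all 10155 genes were) and 1 was past 1.5-fold lower (10.9% of all genes). The second adds the transcripts that Cufflinks assembled anew at the gene, and by it 1 of 44 genes was past 1.5-fold higher and 0 lower, with 15.3% and 3.56% of all 11379 genes in these directions. The third is the junction reads of the gene. The median of the list was -0.16 by RefSeq transcripts and -0.13 by all transcripts, where the medians of all genes were 0.06 and 0.08.

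The sign of the RefSeq and junction ratios differed in 17 of the 43 genes with both. The genes were U2af1, U2af1l4, Sf3b4, Snrnp70, Snrpa, Snrpd1, Snrpe, Snrpf, Prpf4, Prpf6, Eftud2, Cdc5l, Luc7l2, Tia1, Rbm5, Rbm10 and Rbm39. The sign of the ratio by all transcripts differed from the junction ratio in 13 genes.

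None of the 6 genes past 1.5-fold by RefSeq transcripts was past it by either other measure. U2af1, the subunit of U2AF that reads the AG, stood at 3.72 ppm under shControl and 11.4 ppm under shptbp1, a log2 ratio of 1.62. But RefSeq transcripts held 27.6% of its read depth under shControl and 100% under shptbp1. With all transcripts the values were 13.5 and 11.4 ppm and the log2 ratio was -0.23. By junction reads, 28301 and 19163, it was -0.21 (95% exact counting interval -0.24 to -0.18). The same shift of reads between RefSeq and assembled transcripts accompanied the high ratios of Snrpf, Luc7l2, Luc7l3 and Snrpc. Snrpf had a log2 ratio of 1.62 by RefSeq transcripts and -0.14 by junction reads, with 28.7% and 100% of its depth in RefSeq transcripts. Luc7l2 had 1.45 and -0.05, with 28.8% and 76.9%. Luc7l3 had 1.15 and 0.08, with 31.9% and 58.0%. Snrpc had 0.76 and 0.32, with 52.8% and 100%. In Sf3b2, the 1 gene past 1.5-fold lower, the shares were 100% and 94.3%, and the log2 ratio moved from -0.61 to -0.53 by all transcripts and to -0.32 by junction reads. Junction reads do not depend on how reads were shared among transcripts, so they are given first from here on. The counting intervals cover counting error only. In the sum over a gene, a read that crosses several junctions can be counted at several of them.

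**Figure D1:**
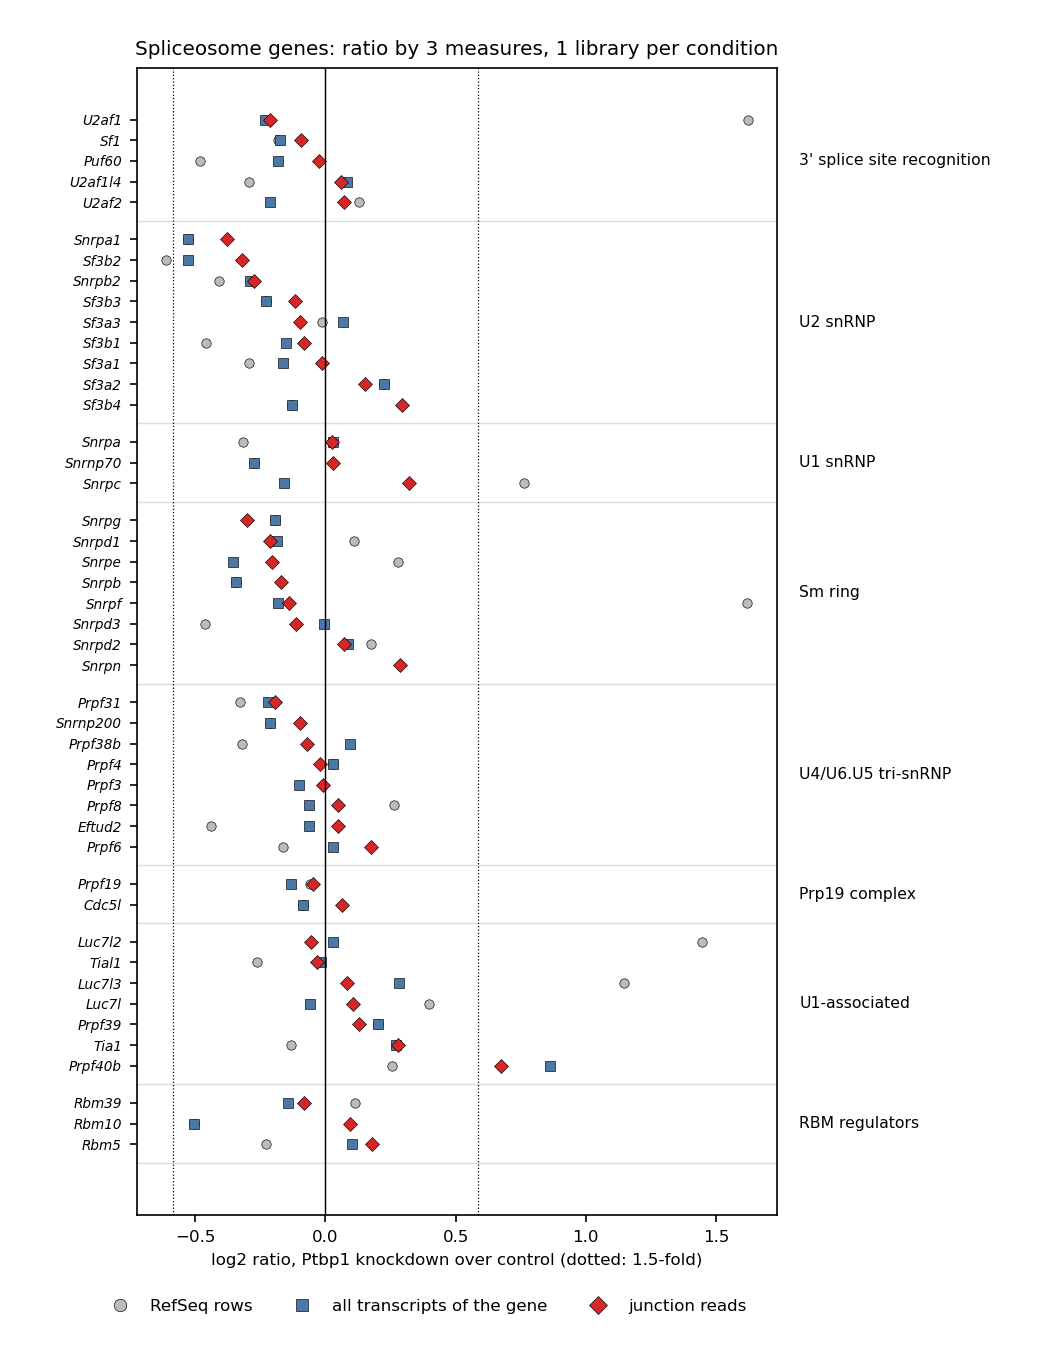
Log2 ratio of knockdown over control for each of the 45 spliceosome genes, grouped by role. Each gene has up to 3 symbols, a gray circle for RefSeq transcripts, a blue square for all transcripts and a red diamond for junction reads, and symbols that coincide hide each other. Dotted lines mark 1.5-fold. The 5 gray circles beyond the right dotted line stand apart from the other symbols of their genes, and the red diamond of Prpf40b is the only one beyond a line.

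**Figure D2:**
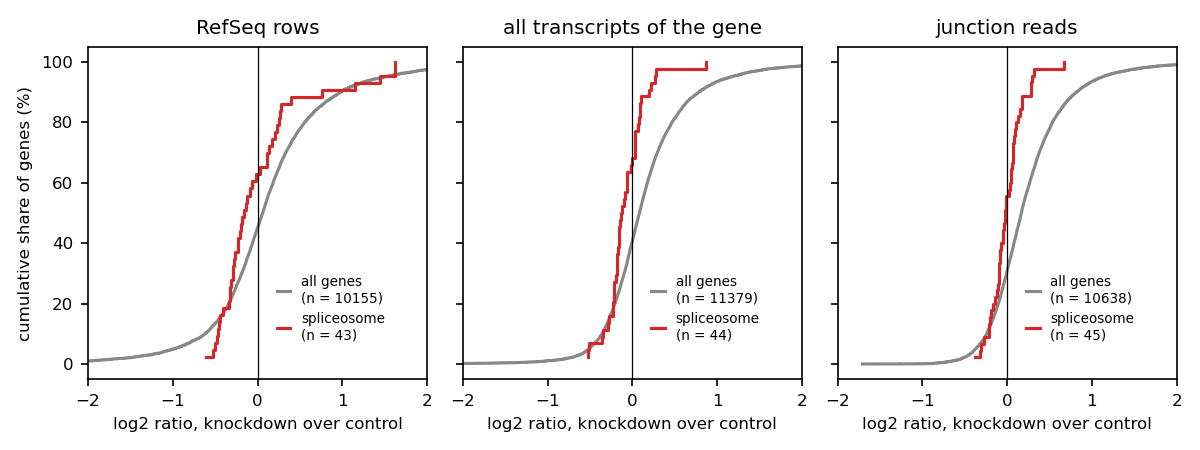
Cumulative share of genes, in percent, against the log2 ratio of knockdown over control, for all genes in gray and spliceosome genes in red, with 1 panel for each measure and the number of genes in its key. Ratios beyond 2 in either direction lie outside the panels. By junction reads the red curve crosses its midpoint at -0.02 and the gray curve at 0.17.

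Apart from U2af1, the proteins that recognise the 3′ splice site had junction ratios between -0.09 and 0.07. Here and in what follows, a pair of values gives the control library first and the knockdown library second. U2af2, the large subunit of U2AF that holds the polypyrimidine tract, had 25460 and 20973 junction reads, a log2 ratio of 0.07. Sf1, which binds the branch point before the U2 snRNP, had 29290 and 21511 reads and a ratio of -0.09. Puf60, a U2AF-like protein, had a ratio of -0.03. U2af1l4, a short relative of U2af1 at a lower level, had 2470 and 2016 reads and a ratio of 0.06. The U2af1l4 gene overlaps Igflr1 on the same strand, so reads in the shared stretch cannot be told apart.

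Of the 9 U2 snRNP proteins, 7 had junction ratios below 0, as 7 did by all transcripts and 8 by RefSeq transcripts, and the 2 lowest junction ratios of the list were among them. Snrpa1, the U2-A′ protein that with U2-B″ holds a stem of the U2 RNA, had 14440 and 8718 junction reads. Scaled to 1000000 junction reads these were 194 and 150, a log2 ratio of -0.38 (-0.41 to -0.34), and the RefSeq value was -0.53. Its partner Snrpb2, which encodes U2-B″, had 9036 and 5857 reads and a log2 ratio of -0.27 (-0.32 to -0.23). Sf3b2 had 26233 and 16461 reads and a ratio of -0.32 (-0.35 to -0.29). The other subunits of SF3B and SF3A, which clamp the branch point, were nearer to 0. Sf3b1, the largest of them, had 37539 and 27761 reads and a ratio of -0.08, and Sf3b3 had 72502 and 52350 reads and a ratio of -0.12. Sf3a1 and Sf3a3 had ratios of -0.01 and -0.10. Sf3a2 and Sf3b4 were the 2 above 0, at 0.15 and 0.29. For Sf3b4 the direction depended on the measure, since its ratio by RefSeq transcripts was -0.13.

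The 3 U1 snRNP proteins had junction ratios above 0, 1 of them above the median of all genes, but 2 of the 3 were below 0 by RefSeq transcripts and by all transcripts. Snrnp70, the U1-70K protein that binds the first stem of U1 RNA, had 25198 and 20146 reads and a log2 ratio of 0.03. Snrpa, which encodes U1-A, had 6462 and 5150 reads and a ratio of 0.02. Snrpc, the U1-C protein that steadies the pairing with the 5′ splice site, had 7379 and 7220 reads and a ratio of 0.32 (0.27 to 0.37), but its ratio by all transcripts was -0.16. Snrnp70 was below 0 by RefSeq transcripts, at -0.27.

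The Sm proteins form the ring of 7 that all these snRNPs share except U6, and they had 7 of the 8 highest levels of the list, U2af1 being the other. The level was taken as reads per junction of constitutive exons in 1000000 junction reads, which does not grow with the length of the transcript. Snrpd2, read on 1 such exon, was highest at 75.9 and 79.6, followed by Snrpd3 at 74.6 and 68.2. The other members of the ring lay between 42.6 for Snrpe and 63.1 for Snrpf in the control library. Of the 8 Sm genes, 6 had junction ratios below 0, from -0.11 for Snrpd3 to -0.30 for Snrpg (-0.34 to -0.26), and the median was -0.16. By all transcripts 6 of 7 were below 0, and by RefSeq transcripts 3 of 7. Snrpn, the SmN protein that replaces SmB in neural tissue, stood apart from the ring. Its level was 6.77 and 7.81, its junction reads were 4764 and 4549, and its ratio was 0.28 (0.23 to 0.34). Cufflinks listed both Snrpn transcripts at 0 in both libraries, while the Snurf transcript of the same locus stood at 19.9 and 22.8 ppm. No junction reads were tied to Snurf, so those given for Snrpn may include reads of the Snurf transcript. Snrpn and Snrpb are closely similar copies, so their values are uncertain where reads match both.

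**Figure D3:**
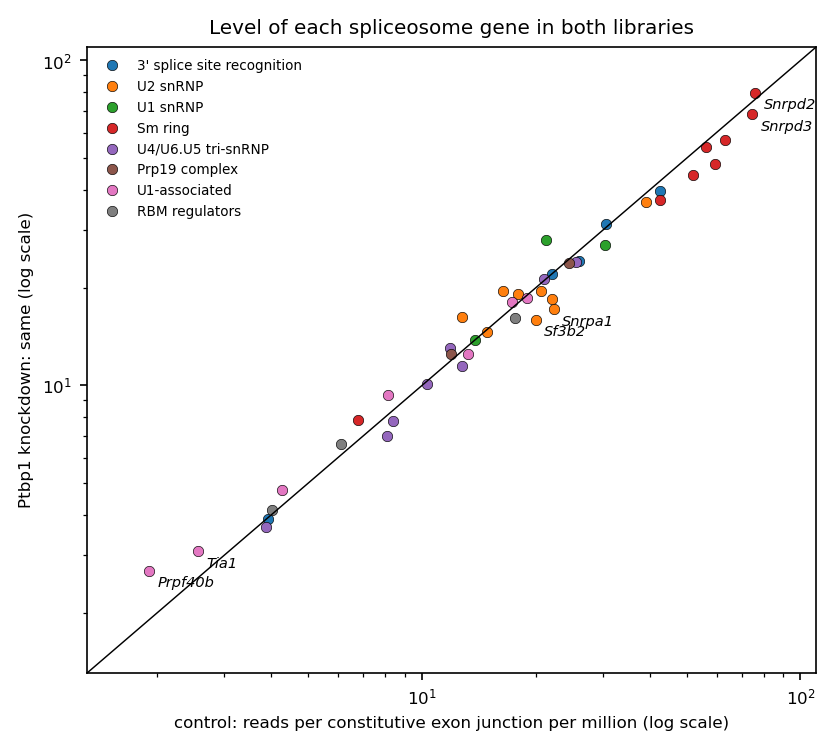
Reads per junction of constitutive exons in 1000000 junction reads, a measure of level per length, for the 45 genes in the control library (horizontal, log scale) and the knockdown library (vertical, log scale), colored by role. The line marks equal levels. The Sm genes other than Snrpn fill the upper right corner with Snrpd2 at 75.9 and 79.6, and Prpf40b and Tia1 lie lowest, above the line.

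The tri-snRNP proteins were spread narrowly around 0. Prpf8, the scaffold of the catalytic core, had 67032 and 54255 junction reads, a log2 ratio of 0.05. The helicase gene Snrnp200 and the GTPase gene Eftud2, whose products work with PRPF8 in the U5 snRNP, had ratios of -0.10 and 0.05. By junction reads Prpf6 was the highest of this group at 0.18, though it was -0.16 by RefSeq transcripts, and Prpf31 the lowest at -0.19. By RefSeq transcripts the highest was Prpf8 at 0.26 and the lowest Eftud2 at -0.44. Prpf3, a U4/U6 protein, was listed at 0 in its RefSeq transcript of the knockdown library, where an assembled transcript held the reads, and its junction ratio was -0.01 with 10972 and 8555 reads. Prpf4 and Prpf38b had ratios of -0.02 and -0.07. In the Prp19 complex, Prpf19 and Cdc5l had ratios of -0.05 and 0.07.

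The proteins that help the U1 snRNP choose 5′ splice sites were the group with the highest median, 0.11, and 5 of 7 had junction ratios above 0, as 5 of 7 did by each other measure, but 2 of 7 lay above the median of all genes by junction reads. Prpf40b, a relative of the yeast U1 protein Prp40, had the highest junction ratio of the list, with 3401 and 4252 junction reads. In 1000000 junction reads these were 45.7 and 72.9, a 1.60-fold higher value and a log2 ratio of 0.67 (0.61 to 0.74). Its ratio was 0.86 by all transcripts and 0.25 by RefSeq transcripts, which held 100% and 65.5% of its depth. It was also the gene with the lowest level of the list, 1.90 and 2.69 reads per constitutive junction on the scale used for the Sm genes. Tia1, which binds uridine-rich RNA after weak 5′ splice sites, was the second lowest in level, at 2.56 and 3.09, and had a ratio of 0.28 (0.20 to 0.36), but -0.13 by RefSeq transcripts. Its close relative Tial1 had 17021 and 13041 reads and a ratio of -0.03. The LUC7-like genes Luc7l, Luc7l2 and Luc7l3 had ratios of 0.11, -0.05 and 0.08, and Prpf39 had 0.13. The 3 RNA-binding regulators of early assembly, Rbm5, Rbm10 and Rbm39, had junction ratios of 0.18, 0.09 and -0.08 and the opposite signs by RefSeq transcripts, at -0.23, -0.51 and 0.11. The RefSeq value of Rbm10, -0.51, was among the 3 lowest of the list, and its junction reads were 7932 and 6638.

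A second list of 69 other spliceosome genes was read the same way. Of the 66 with junction reads enough for a ratio, 1 was past 1.5-fold higher and 0 lower, and the median log2 ratio was -0.03. The higher gene was Snrnp48, a protein of the minor spliceosome's U11/U12 particle, with 2021 and 2590 junction reads and a log2 ratio of 0.71. The lowest was Phf5a, the small SF3B subunit that lines the branch point pocket, with 6037 and 3175 reads and a ratio of -0.58, just inside the threshold. By RefSeq transcripts 5 of 66 were past 1.5-fold higher, 7.58% against 19.1% of all genes, and 16 were lower, 24.2% against 10.9%. By all transcripts 1 of 68 was higher, 1.47% against 15.3%, and 3 were lower, 4.41% against 3.56%. Those 3 were Phf5a, Isy1 and Bud31.

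Splicing of the spliceosome transcripts was measured on 784 of 788 exon trios that had at least 20 reads in each library, giving 658 distinct events in all 45 genes. The trio holding most reads stood for each event. Constitutive exons made up 577 of the events, cassette exons 38, alternative acceptors 22, alternative donors 13 and retained introns 8. In both libraries PSI was 95 or more for 554 of the 577 constitutive exons. In 33 of the 45 genes no event changed by 5 points in the deposited PSI. These were all 9 U2 snRNP genes, all 8 tri-snRNP genes, both Prp19 complex genes, 7 of the 8 Sm genes and others. The share of all genes without such an event was not computed, so the count cannot be set against it. By junction PSI, the exon of the U2 snRNP gene Snrpa1 described below differed by -5.21 points.

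The share of events that changed was near that of all genes or below it. The events of the list were also read more deeply, with medians of 3226 and 2542.5 reads against 782 and 682 over all events. For cassette exons the medians were 1259 and 1041.5 against 626 and 553. The part of depth in the shares was not tested. Among cassette exons, 5 of 38 had PSI higher by 5 points or more in the knockdown library, 13.2% against 16.1% of all 6565 cassette exons, and 2 of 38 were lower, 5.26% against 14.6%. Among constitutive exons 6 of 577 were higher and 4 lower, where 1.34% and 1.57% of all 108639 were. Among acceptors, donors and retained introns 4 of 43 were higher and 2 lower, where 12.5% and 9.5% of all 6271 were. With the further condition that the 95% Newcombe interval of the difference in junction PSI lay on the same side of 0, 5 of the 658 events were higher and 2 lower. Over all 121475 events the shares were 0.819% higher and 0.788% lower, and those of the list were 0.76% and 0.304%.

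**Figure D4:**
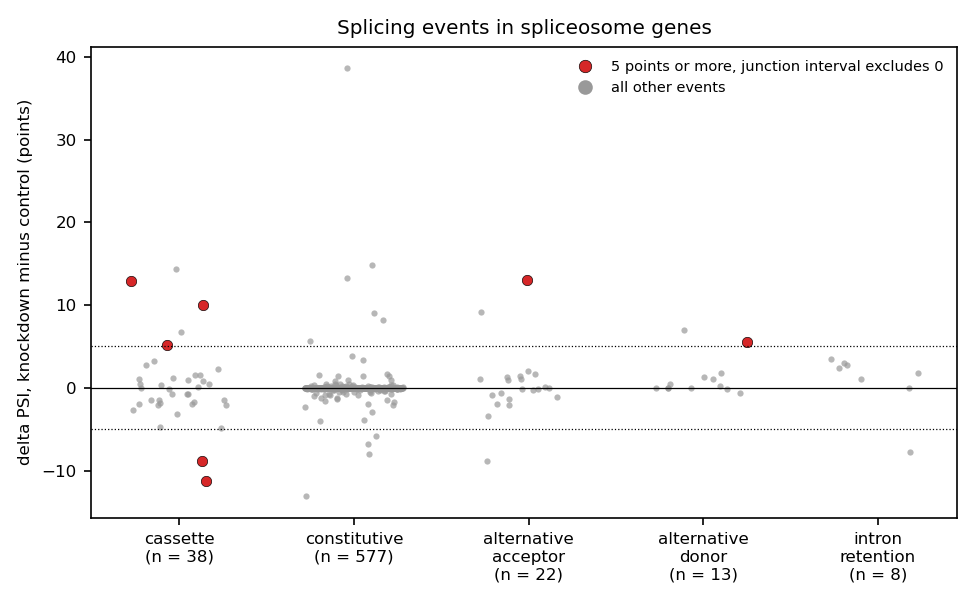
Delta PSI, knockdown minus control in points, for the 658 events of the spliceosome genes, by class, with points spread sideways for legibility. Dotted lines mark 5 points. Red points are the 7 events past 5 points whose junction interval excludes 0. The gray constitutive point at 38.6 is the Sf1 exon, which has no skipping reads in either library.

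Tial1 and Tia1 held 4 of the 7 events. Tial1 encodes TIAR, and its alternative acceptor adds 51 coding bases, chr7:135592234-135592284, a whole number of codons with no stop codon in frame. PSI of the longer form was 27.3 and 40.3. The acceptor of the shorter form had 944 and 578 junction reads, the acceptor of the longer form had 121 and 100, and the boundary of the segment with the shared exon had 379 and 437. Junction PSI, the inclusion reads per boundary as a share of these and the skipping reads, was 26.0% (95% Wilson interval 23.6 to 28.4) and 38.1% (35.1 to 41.3). The difference was 12.2 points (95% Newcombe interval 8.22 to 16.1), with p = 6.21e-07 by two-sided Fisher's exact test after Benjamini-Hochberg adjustment over all events. Such a test speaks of the reads in 2 libraries, not of the conditions. The boundary with the shared exon can also be crossed by unspliced RNA. By the acceptor junctions alone, the longer form had 12.8 and 17.3 reads for every 100 of the shorter form, with an unadjusted p = 0.046 by Fisher's exact test. Reads that cross both ends of this 51 base segment appear to be deposited on the boundary with the shared exon only. The acceptor counts of the longer form therefore leave such reads out and are likely too low. In the sequence shown above, 62% of the 100 bases upstream were pyrimidines, against a median of 55% over the 118361 cassette, constitutive and acceptor events of all genes.

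A second Tial1 exon, the 60 base cassette exon at chr7:135602111-135602170, lies in a noncoding transcript of the annotation. Its PSI was 5.1 and 10.3. With the control shRNA the inclusion junctions had 51 and 10 reads and the skipping junction 783, and after knockdown they had 84, 19 and 610. Junction PSI differed by 4.87 points (2.28 to 7.61), with an adjusted p = 0.0418 by Fisher's exact test. Read in the frame of the coding transcripts, the exon meets a TAG at its base 53.

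In Tia1, the 33 base coding exon at chr6:86369095-86369127, which keeps the frame, had PSI of 83.8 and 72.6. With the control shRNA 139 and 30 inclusion reads stood against 26 skipping reads, and after knockdown 72 and 26 stood against 29. The difference in junction PSI was -11.2 points (-21.8 to -0.87), and the adjusted p was 1 by Fisher's exact test. The alternative donor of Tia1 adds the 133 bases at chr6:86375065-86375197. In the annotation they lie in exons of 1 transcript each of the protein coding, nonsense-mediated decay, processed and retained intron types. PSI of this donor was 10.8 and 16.3. With the control shRNA it had 25 and 16 inclusion reads against 228 of the shorter form, and after knockdown 39 and 36 against 244, a difference of 5.41 points (0.05 to 10.7) and an adjusted p of 1 by the same exact test. Its spliced junction alone had 16 and 36 of these reads, or 7.02 and 14.8 for every 100 of the shorter form (unadjusted p = 0.0188, Fisher's exact test). The values of Tia1 thus lay in opposite directions at its 2 sites, at a depth of 127 to 383 reads on each trio.

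Snrnp70 had a difference of 12.9 points in the deposited PSI and of 5.69 points in junction PSI, the second and the fifth largest of the 7. The segment of 1360 bases at chr7:52637195-52638554 begins with a 26 base exon that the annotation gives as the last coding exon of a shorter U1-70K transcript, and the frame ends in it at a TGA starting at base 24. PSI was 12.7 and 25.6. The skipping junction had 2448 and 1382 reads, the junction into the segment 165 and 248, and the junction out of it 8 and 28. Junction PSI was 3.39% (2.76 to 4.17) and 9.08% (7.74 to 10.6), with an interval of 4.13 to 7.36 for their difference and an adjusted p = 5.9e-11 by Fisher's exact test. Both measures were higher in the knockdown library, but the deposited PSI, which also uses coverage along the segment, was larger in each library than junction PSI. For every 100 skipping reads the junction into the segment had 6.74 and 17.95 (unadjusted p = 8.85e-21, Fisher's exact test). The total of junction reads over Snrnp70 had a log2 ratio of 0.03. A second Snrnp70 cassette exon of 80 bases, chr7:52650463-52650542, had PSI of 15.7 and 13.6, with a difference in junction PSI of -2.08 points (-3.96 to -0.19).

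A pair of exons that end the reading frame differed in opposite directions. The 73 base exon of Rbm39 at chr2:156004616-156004688 lies in 4 transcripts annotated for nonsense-mediated decay and in no coding one, and a TAA begins at its base 70 in the coding frame. Its PSI was 50.9 and 60.9. Inclusion reads were 198 and 72 against 150 skipping reads, and 186 and 46 against 89. Junction PSI differed by 9.11 points (0.52 to 17.5), and the adjusted p was 1 by Fisher's exact test. The 100 base exon of Prpf39 at chr12:66156421-66156520, also annotated for decay, meets a TAG at its base 85. Its PSI was 46.9 and 38.0, with 158 and 153 inclusion reads against 169 skipping reads and 116 and 124 against 187. The difference was -8.91 points (-16.5 to -1.18), and the adjusted p was 1 by the same exact test. Total junction reads of the 2 genes gave log2 ratios of -0.08 for Rbm39 and 0.13 for Prpf39, and by RefSeq transcripts these were 0.11 and 0.20.

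The Snrpa1 exon lay just under 5 points but its adjusted p was the third lowest of the list. It is 80 bases long, coding and not a multiple of 3, at chr7:73215005-73215084. PSI was 96.4 and 91.7. With the control shRNA 2441 and 983 inclusion reads stood against 78 skipping reads, and after knockdown 1268 and 609 stood against 105. Junction PSI was 96.1% (95.1 to 96.8) and 90.9% (89.0 to 92.4), a difference of -5.21 points (-7.17 to -3.40) with an adjusted p = 2.18e-06 by Fisher's exact test. Of the 658 events of the list, 4 had an adjusted p under 0.05 by Fisher's exact test, against 810 of the 121475 events of all genes. The 4 were this exon, both Tial1 events and the Snrnp70 segment. Just inside the 5 points, the 60 base Tial1 exon was at 5.2. Just outside them, with Snrpa1 at -4.7, was the 30 base exon of U2af1l4 at -4.9 (86.9 and 82.0), whose junction interval contained 0.

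**Figure D5:**
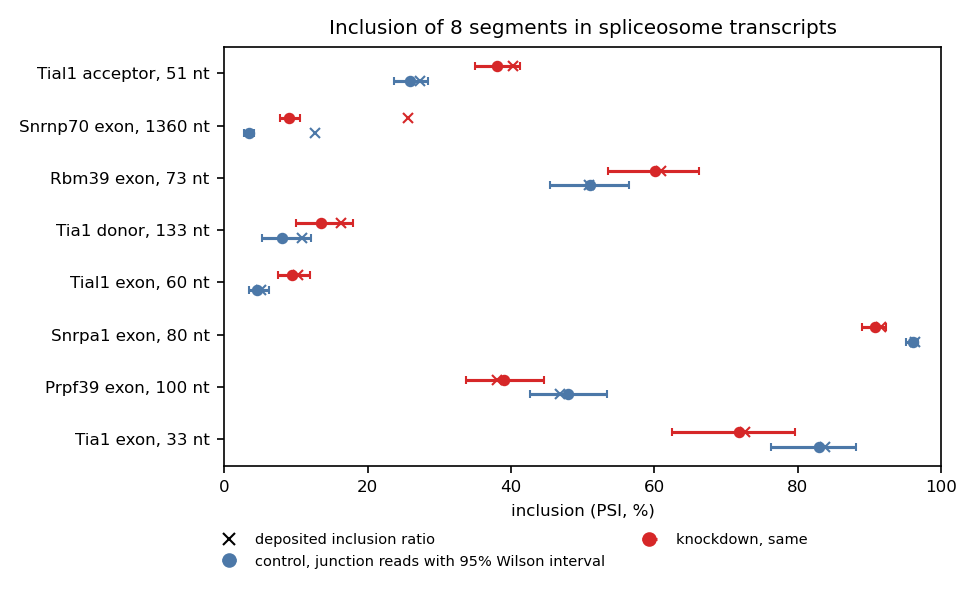
Inclusion in percent for the 8 segments described, with the control library in blue and the knockdown library in red. Circles are junction PSI with 95% Wilson intervals, and crosses are the deposited PSI. The intervals of the libraries are apart for the Tial1 acceptor, the Snrnp70 segment, the 60 base Tial1 exon and the Snrpa1 exon, and overlap for the other 4. Crosses lie near circles except for Snrnp70, at 12.7 and 25.6.

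The other 16 events past 5 points had junction intervals that contained 0. The largest, a constitutive exon of Sf1 of 180 bases at chr19:6374719-6374898, had PSI of 37.2 and 75.8, but its skipping junction had 0 reads in both libraries. Its left junction had 344 and 453 reads and its right junction 92 and 142. Those PSI values therefore rest on coverage and not on skipping. The neighbouring Sf1 acceptor of 638 bases, chr19:6375658-6376295, had PSI of 53.5 and 62.7, with 92 and 142 reads on its acceptor junction, 734 and 731 on the boundary with the shared exon and 139 and 139 on the skipping junction. Its junction PSI differed by 1.01 points (-4.02 to 6.04). By the acceptor junctions alone it had 66.2 and 102.2 reads for every 100 skipping reads (unadjusted p = 0.0163, Fisher's exact test). The constitutive-class trio of the same Prpf39 exon, with other flanking exons, had PSI of 79.8 and 66.7. A stretch of 3329 bases in Rbm5, chr9:107659324-107662652, classed as a retained intron, had PSI of 95.9 and 88.2 with 2 and 7 skipping reads. It holds a coding exon of 74 bases, chr9:107662107-107662180, with PSI of 99.6 and 97.5. Transcripts that splice this exon in do not use the skipping junction, so the PSI of the stretch does not measure retention. Among the rest were 3 events each of Snrpn, Luc7l2 and U2af1l4, 2 of Puf60 and 1 of Rbm10, the last an alternative donor of 3 bases with PSI of 41.1 and 48.1.

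Several well-read alternative exons of the list hardly differed. The mutually exclusive 67 base exons of U2af1 had PSI of 81.9 and 80.0 at chr17:31788591-31788657 and of 21.0 and 22.6 at chr17:31789447-31789513. The intervals of their differences were -6.51 to 2.13 and -0.86 to 3.86 points. The 51 base exon of Puf60, chr15:75905037-75905087, had 44.4 and 44.3 (-5.23 to 3.11). The 30 base exon of Luc7l2, chr6:38548785-38548814, had 53.1 and 53.6 (-3.76 to 3.30). The 45 base exon of U2af2, chr7:5018812-5018856, had 85.2 and 83.4 (-4.04 to 0.59). In these exons a difference of 5 points in junction PSI lies beyond the interval on at least 1 side.

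PTBP1 binds pyrimidine-rich RNA, and a set of 3 pyrimidine words that can overlap one another was searched for on the transcript strand in the 100 bases upstream of the exons. TTCTCT lay before 21.1% of the 38 cassette exons of the list and 14.5% of all cassette exons. CTCTCT lay before 7.89% and 11.2% of them. TCTTC lay before 15.8% and 23.1%. At least 1 of the 3 was present before 34.2% of the cassette exons and 34.8% of the 577 constitutive exons of the list, against 37.4% and 36.3% of all cassette and constitutive exons. Of the 7 segments shown, the Tial1 acceptor had TCTTC starting 9 bases before it and the 60 base Tial1 exon 11 bases before it, both in the tract next to the AG. The Rbm39 exon had CTCTCT 12 bases before it, and the Snrpa1 exon had TTCTCT 84 bases before it and an overlapping TCTTC at 81. No match was found before the Tia1, Prpf39 and Snrnp70 segments. Pyrimidines made up 46% of the 100 bases before the Snrnp70 segment and 52% to 62% before the other 6. A match is a description of the letters and not of binding.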

How the data were processed

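The 45 genes were taken by name from the list given for this work, and mapped to RefSeq and GENCODE symbols with older aliases accepted. Members and lists were chosen with earlier results of these data known. Reads were processed by the authors with CASAVA, TopHat and Cufflinks on mm9 and with SpliceTrap, in versions not given in the sources used here. The authors deposited, for each SpliceTrap trio, an inclusion ratio as a fraction, raw junction read counts, and coverage in reads per 100 bases. They also deposited Cufflinks coverage (mean depth per base, a signal) and FPKM for each isoform, assembled separately in each library. Gene FPKM values were not used.

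PSI is the corrected ratio times 100, and events needed 20 reads in each library. Trio reads were coverage times length. Within a trio, reads that cross both junctions of a short exon appear to be deposited only on the left one in genome order. Inclusion was therefore the sum of both junctions divided by 1 plus the exon length, up to 100 bases, over 100. Gene ratios were coverage times length over the library total, for genes with at least 1 ppm in 1 library and above 0 in both, or junction reads of junctions tied to 1 gene, with at least 50 reads in 1 library. RefSeq isoforms held 60.4% (control) and 58.2% (knockdown) of the bases. Sums over all transcripts and over junction reads, and tests of the spliced junction alone for 4 segments, were added after seeing the data. With 1 library for each condition no p-value is given across genes. Intervals were exact, Wilson or Newcombe at 95%, and two-sided Fisher's exact tests on junction reads were adjusted over all events. Genes named were Ptbp1, members past 1.5-fold, the 3 highest and 3 lowest ratios, the 2 highest levels, and members with an event past 5 points whose interval excludes 0. Other genes and events, such as Prpf40b and the Snrpa1 exon, were named after their values were seen. Sequence came from the NCBIM37 assembly (mm9). The functions were tested on simulated data. Software was Python 3.11.15, NumPy 2.4.6, SciPy 1.17.1, pandas 2.3.3, pysam 0.24.0 and matplotlib 3.10.9.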

Additional observations from a re-analysis of the deposited data

How the results depend on the processing

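The count of spliceosome genes past 1.5-fold depended on how transcripts were summed. It was 5 higher and 1 lower by RefSeq transcripts, 1 and 0 by all transcripts, and 1 and 0 by junction reads, where the median log2 ratio was -0.020. U2af1 changed sign, to -0.23 by all transcripts and -0.21 by junction reads. So did Snrpf, to -0.18 and -0.14, Snrpc by all transcripts, to -0.16, and Luc7l2 by junction reads, to -0.054. With FPKM, and a pseudocount of 1 or 0.1, 10 genes were past 1.5-fold lower and the median was -0.36, on a scale where the median of all genes moved from 0.06 to -0.13. Genes past the fold lower were 0 with the total over RefSeq rows or at 2-fold, 2 after centring on the median of all genes, and 10 at a lower fold threshold than 1.5. For the other spliceosome genes, 5 higher and 16 lower by RefSeq transcripts became 1 and 3 by all transcripts and 1 and 0 by junction reads, and the median was -0.32 with FPKM. Events past 5 points were 15 higher and 8 lower, and past 10 points 7 and 2. By junction reads alone, 5 were higher and 4 lower past 5 points. The 4 include the Snrpa1 exon (-5.21 points), which was not among the 8. By that measure 6 of the 15 and 3 of the 8 had under 20 junction reads in a library and were not evaluated. Read on the spliced junction of the longer form alone, the ratio of the libraries in inclusion over skipping reads was 1.35 for the Tial1 acceptor (1.76 with both boundaries), 2.66 for Snrnp70 (2.84), 2.10 for the Tia1 donor (1.77) and 1.54 for the Sf1 acceptor (1.06). For the short Tial1 segment that junction appears to leave out reads that cross both of its ends. Of the 14 events that had 20 junction reads in each library, 0 turned direction by junction reads. Among them the 180 base Sf1 exon could not turn, since it had 0 skipping reads and a junction PSI of 100 in both libraries. Below that depth 2 of 9 turned direction, the 120 base exon of Puf60 (6.7 points by PSI and -13.5 by junction reads) and the 188 base exon of U2af1l4 (-8.0 and 6.06). No paired analysis was possible because there is 1 library for each condition. Snrpn and Prpf3 have no RefSeq ratio.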
